A study of Mus musculus with 6 samples.

Results

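The collagen and integrin families were examined in mouse mammary carcinoma cells infected with hairpins against Asns, the gene of asparagine synthetase, or with a control hairpin. A member was any gene whose symbol was Col with a type and a chain number, or Itga or Itgb with a chain number or letter. Col17a1, Itga6 and Itgb4 were left out by that rule. It took 68 of the 23481 genes in the table, 43 of them collagens and 25 integrins. A member with at least 50 reads summed over the libraries with reads was taken as expressed, which held for 28 members, 13 collagens and 15 integrins. Itgbl1 fits the pattern but encodes an integrin-like protein that is not a receptor chain, and it had 0 reads in every library. Itga2b, whose symbol ends in a letter after its number, was not among the members.

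The cells were 4T1, an established mouse breast cancer line, called 4T1_T in the table. All groups were grown in DMEM with non-essential amino acids and carried a short hairpin RNA. The groups were shAsns-1 and shAsns-2, each a hairpin against Asns, and shRenilla, a control aimed at a luciferase that mouse cells lack, with libraries A and B in each. Nothing says whether A and B came from separate cultures or infections, so p-values measure only the spread between these libraries, which may be technical. No gene had a read in shAsns-1 B, which left 1 shAsns-1 library and 5 libraries in all.

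CPM are reads per 1000000 reads counted in genes. Asns itself had 110.4 CPM in the library labelled shAsns-1, 45.7 and 44.2 CPM in the shAsns-2 libraries and 58.7 and 56.9 CPM in the shRenilla libraries. It was thus higher than in shRenilla under the shAsns-1 label (log2 fold change 0.92, SE 0.101, adjusted p 6.3e-05 by edgeR's quasi-likelihood test) and not called in shAsns-2 (log2 fold change -0.34, SE 0.0882, adjusted p 0.216). Each library had between 10244753 and 15955168 gene reads, so a floor of 3 reads stood at 0.188 to 0.293 CPM. The library labelled shAsns-1 also had reads at more genes, 17672, than the 2 shAsns-2 libraries, 15392 and 15052, and the 2 shRenilla libraries, 15240 and 15177. Epithelial marker genes summed to 916.2 CPM in the library labelled shAsns-1, 1145 and 1139 CPM in shAsns-2 and 1117 and 1098 CPM in shRenilla. The genes did not move alike. Krt14 had 2.831 CPM in the library labelled shAsns-1, 11.84 and 12.46 CPM in shAsns-2 and 12.85 and 13.16 CPM in shRenilla. Krt8 had 206.1 CPM in the first, 212.8 and 219.5 CPM in shAsns-2 and 223.4 and 219.6 CPM in shRenilla. Epcam, Cdh1, Krt7 and Cldn4 were also lowest in the library labelled shAsns-1. Krt18 lay within the range of the other libraries, and Krt5 had 0 reads in all but the first. In bulk RNA, fewer cells that express a gene and less RNA of it per cell cannot be told apart.

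Collagens are trimers, and most are secreted and build the extracellular matrix. Type IV collagen forms the sheet of the basement membrane under epithelia, type VIII forms short-chain networks, and types I, III and V form fibrils, which types XII, XIV and XVI decorate. Integrins are receptors of 1 alpha and 1 beta chain that bind this matrix outside the cell and the actin cytoskeleton inside it. The alpha chain largely sets the ligand, and the beta1 chain, Itgb1, is shared by receptors for collagen, laminin and fibronectin.

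Col4a1 and Col4a2, the genes of the main type IV collagen trimer of basement membranes, lie head to head on chromosome 8 of GRCm38 and share 1 promoter region. Their start sites in RefSeq are 21 bases apart, and the 22 bases at the ends of the annotated genes overlap on opposite strands. The promoter windows run from 250 bases before to 50 bases after each start, and are shown because both chains are read from this stretch. Col4a1 is at chr8:11312777-11313076 on the minus strand and Col4a2 at chr8:11312555-11312854 on the plus strand (RefSeq, GRCm38.p6). Capitals mark the 78 bases that the windows have in common, each 5′ to 3′ on its own gene's strand.
Col4a1: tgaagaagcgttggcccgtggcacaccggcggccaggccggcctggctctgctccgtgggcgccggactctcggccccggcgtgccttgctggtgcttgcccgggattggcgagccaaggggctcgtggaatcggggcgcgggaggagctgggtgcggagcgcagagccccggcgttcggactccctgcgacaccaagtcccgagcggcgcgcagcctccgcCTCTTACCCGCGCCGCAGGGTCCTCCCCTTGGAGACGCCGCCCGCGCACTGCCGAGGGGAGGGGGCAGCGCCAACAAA
Col4a2: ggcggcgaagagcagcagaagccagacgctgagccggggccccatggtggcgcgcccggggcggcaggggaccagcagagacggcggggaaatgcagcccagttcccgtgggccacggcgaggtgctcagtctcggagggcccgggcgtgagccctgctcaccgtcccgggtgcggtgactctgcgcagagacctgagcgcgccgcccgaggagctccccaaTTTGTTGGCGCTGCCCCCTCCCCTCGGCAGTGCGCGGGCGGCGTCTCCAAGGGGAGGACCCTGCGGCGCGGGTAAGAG
The windows had a GC content of 74.0% and 73.7%, against a median of 52.7% over all promoters in the table. Each held 1 CCAAT, found in 37.9% of all promoters, and GGGCGG, found in 35.9%, occurred 1 time in the Col4a1 window and 3 times in the Col4a2 window. The Col4a1 match and the last Col4a2 match are the same bases of the shared stretch, read on opposite strands. TATAAA (14.2% of promoters) and TGANTCA (7.93%) did not occur in either, with both strands searched and none of these motifs overlapping another. A match describes letters, not a bound site.

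Levels between genes were compared as RPKM, the CPM per kilobase of annotated exon. The integrins were led by Itgb1, with a mean of 189 RPKM over the 5 libraries, and by the laminin-binding chain Itga3 with 122 RPKM. Itgav, which binds ligands with an RGD motif, averaged 30.4 RPKM, the collagen-binding chain Itga2 17.1 RPKM and the fibronectin-binding chain Itga5 13.2 RPKM. Among collagens, Col8a1 averaged 51.2 RPKM, Col4a1 42.4 RPKM and Col4a2 41.5 RPKM. The other 10 expressed collagens averaged at most 9.94 RPKM, the level of Col18a1, which carries the endostatin sequence. The next levels were Col5a1 at 6.82 RPKM, Col6a1 at 5.89 RPKM and Col7a1 at 5.78 RPKM. Neighbours in this order were often within the spread of the libraries. Col4a1 ranged over 40.8 to 45.8 RPKM and Col4a2 over 35.8 to 46.1 RPKM, and Col6a1 over 5.23 to 6.98 RPKM and Col7a1 over 4.38 to 6.90 RPKM, so neither pair was ordered. Itgb1 and Itga3 did not overlap, at 169.9 to 202 RPKM and 106 to 131 RPKM.

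**Figure D1:**
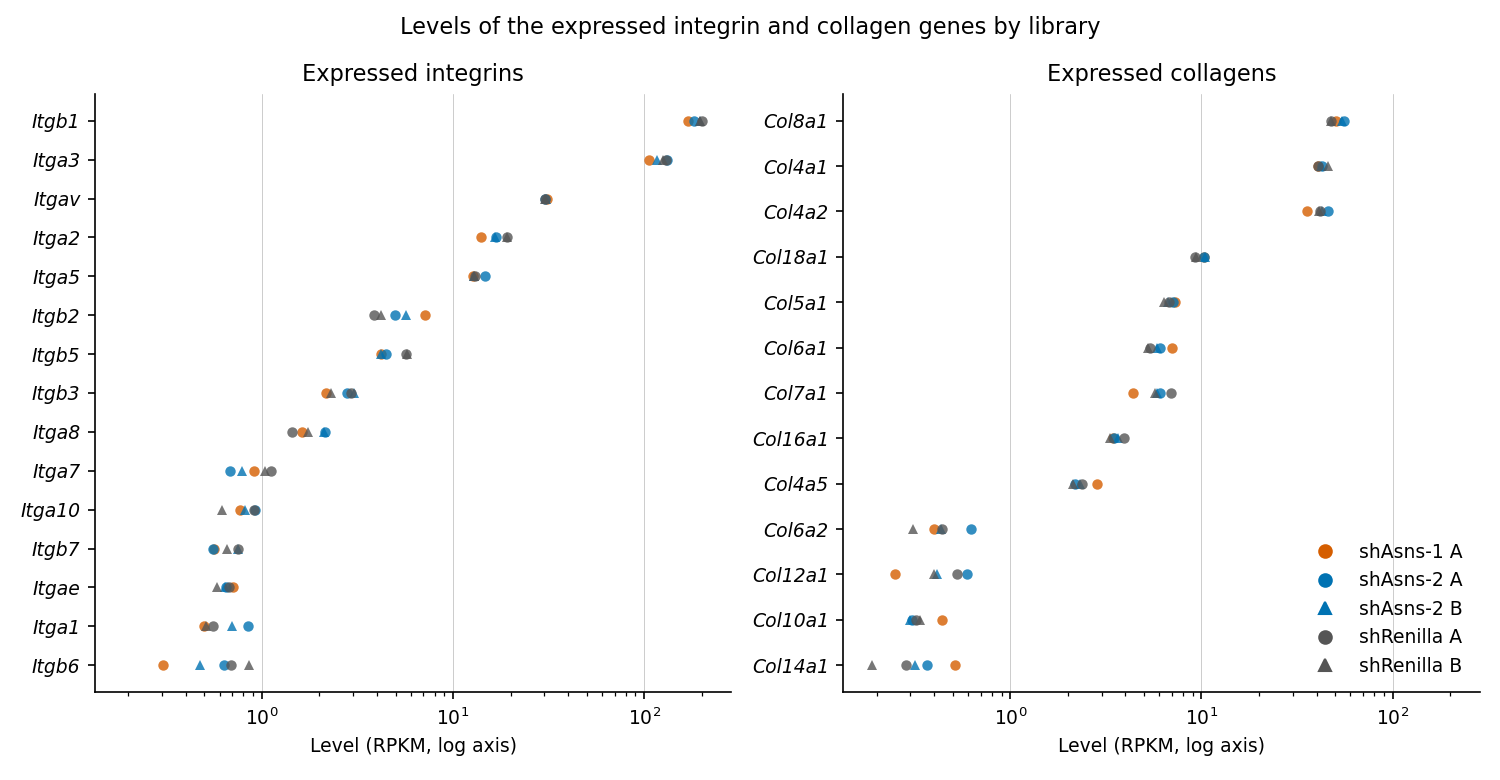
Levels of the 28 expressed members, in RPKM on a log axis, with 1 point per library (circle A, triangle B), integrins left and collagens right, each ordered by mean. Itgb1 and Itga3 stand above the other integrins, and Col8a1, Col4a1 and Col4a2 above the other collagens, in every library.

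Counting members only, and so without Col17a1, Itga6 and Itgb4, the reads of both families were held by a few genes. Col4a1, Col4a2 and Col8a1 took 77.1% of collagen reads in the library labelled shAsns-1, with 78.8 and 79.0% in shAsns-2 and 77.4 and 79.6% in shRenilla. Itgb1, Itga3, Itgav and Itga2 took 91.8% of integrin reads in the library labelled shAsns-1, with 91.8 and 92.2% in shAsns-2 and 92.7 and 92.7% in shRenilla. Collagen reads came to 1215 CPM in the library labelled shAsns-1, 1343 and 1298 CPM in shAsns-2 and 1234 and 1243 CPM in shRenilla. Integrin reads came to 1882 CPM in the library labelled shAsns-1, 2102 and 2075 CPM in shAsns-2 and 2182 and 2134 CPM in shRenilla. The shAsns-1 sum was the lowest of the 5 for both families.

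Of 21 integrin pairs grouped by main ligand, 12 had both chains expressed. Pairs of Itga6 with Itgb1 or Itgb4, also laminin receptors, were not listed, since the rule leaves those chains out. The complete pairs were 3 of 4 collagen receptors (Itga1, Itga2 and Itga10 with Itgb1), both listed laminin receptors (Itga3 and Itga7 with Itgb1), and 6 of 7 receptors for RGD ligands or fibronectin. The last were Itga5, Itga8 and Itgav with Itgb1, and Itgav with Itgb3, Itgb5 and Itgb6. Itgb8, the partner missing from the last group, had 2 to 8 reads in a library. None of the 3 pairs of Itga4 or Itga9 was complete, since Itga4 had at most 2 reads and Itga9 at most 5 in a library. Of 5 leukocyte pairs, Itgae with Itgb7, the receptor for E-cadherin, was complete. These are messenger RNA levels, and no pairing of proteins was measured.

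**Figure D2:**
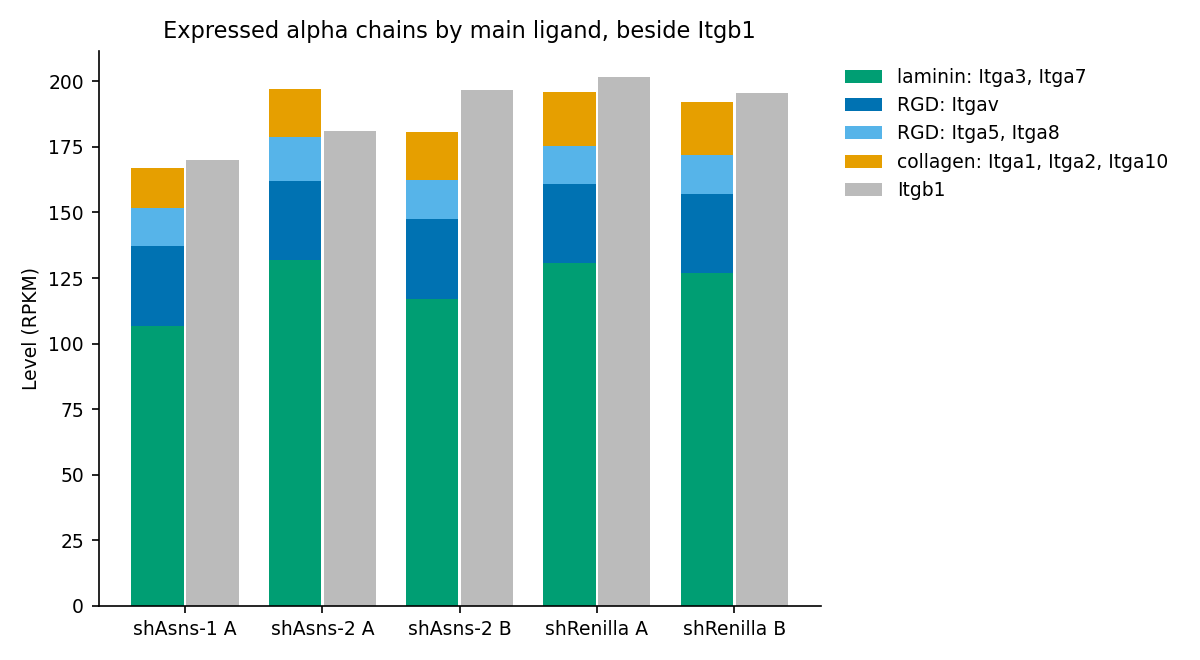
Stacked levels, in RPKM from 0, of the 8 expressed alpha chains among the members that can pair with Itgb1, coloured by main ligand, beside Itgb1 in grey, for each library. The stack is dominated by the laminin-binding chains, mainly Itga3, and both bars are lowest in the library labelled shAsns-1.

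Summed per kilobase, the 11 alpha chains among the members that can pair with Itgb1 reached 167.1 RPKM in the library labelled shAsns-1, 197.3 and 180.7 RPKM in shAsns-2 and 196.0 and 192.1 RPKM in shRenilla. Itgb1 itself stood at 169.9 RPKM in the library labelled shAsns-1, 181.1 and 196.9 RPKM in shAsns-2 and 201.6 and 195.4 RPKM in shRenilla. The sum and Itgb1 were of similar size, though Itga6, a further laminin-binding partner of Itgb1 that the rule leaves out, added 57.6 RPKM in the library labelled shAsns-1, 61.7 and 62.9 RPKM in shAsns-2 and 58.4 and 56.7 RPKM in shRenilla. Itga3 made up 63.2% of the alpha sum in the library labelled shAsns-1, with 66.4 and 64.2% in shAsns-2 and 66.2 and 65.5% in shRenilla. Itgav made up 18.4% in the library labelled shAsns-1, with 15.3 and 16.9% in shAsns-2 and 15.3 and 15.7% in shRenilla. Itga2 made up 8.37% in the library labelled shAsns-1, with 8.48 and 9.19% in shAsns-2 and 9.76 and 9.97% in shRenilla. The order Itga3, Itgav, Itga2, Itga5 held in each library.

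In shAsns-2 against shRenilla, none of the 35 members that passed the filter on low counts (the 28 expressed and Col2a1, Col4a6, Col6a3, Col11a2, Col15a1, Col20a1 and Col27a1) was called at an adjusted p under 0.05 by edgeR's quasi-likelihood test, DESeq2 or limma-voom. Over all 12457 genes tested, 8 were called, which is 0.0642%. At an unadjusted p under 0.05, 8 of the 28 expressed members were past the threshold by edgeR, 5 higher and 3 lower. That was 28.6%, against 9.63% of all genes tested. The 2 library groups did not overlap in CPM for 13 of the 28 expressed members, or 46.4%, against 42.4% of all genes tested. Of these, 8 were higher in shAsns-2 (28.6%, against 16.6% of all genes) and 5 lower (17.9%, against 25.8%).

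In the library labelled shAsns-1 against shRenilla, 4 of the 35 members were called (11.4%), against 4.37% of all genes tested. Itgb2, the beta chain of leukocyte integrins, was higher, where 2.31% of all genes were called higher. Itga2, Itgb6 and Col7a1 were lower, where 2.06% of all genes were called lower. The filter on low counts could be passed through 1 library. Col2a1, Col11a2, Col15a1 and Col20a1, tested but below 50 reads, had their highest CPM in the library labelled shAsns-1. Their direction there is thus not taken as a result. When that library was left out, 30 members passed the filter. Over the 15 tested integrins, all of them expressed, the median log2 fold change was -0.24, with 4 positive and 11 negative, and the median over all genes was -0.01. The 13 expressed collagens had a median of 0.07, with 8 positive and 5 negative. In shAsns-2 the 15 integrins had a median of 0.04, with 8 positive and 7 negative, and the 13 collagens a median of 0.12, with 10 positive and 3 negative. The comparison of shAsns-1 rests on 1 library, which was assumed to vary like the others, and it shares its control libraries with shAsns-2 against shRenilla.

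Between the hairpins, in shAsns-2 relative to the library labelled shAsns-1, 0 of 35 members were called by edgeR's quasi-likelihood test, DESeq2 or limma-voom, where 2.14% of all genes tested were called by edgeR. Of the 28 expressed members, 20 lay higher and 8 lower in shAsns-2. Their log2 values centred on 0.16 (median), against 0.0023 over all genes. Tested members below 50 reads are left out here, since the library labelled shAsns-1 alone could carry them past the filter. Col15a1, for example, had 8 reads in that library and 3 and 0 in shAsns-2. Hairpin and library cannot be told apart in this comparison. Itgb4, a laminin-receptor chain outside the members, was called there, with a log2 fold change of 0.51 (adjusted p 0.0266), while Itga6 was not (0.15, adjusted p 0.439).

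**Figure D3:**
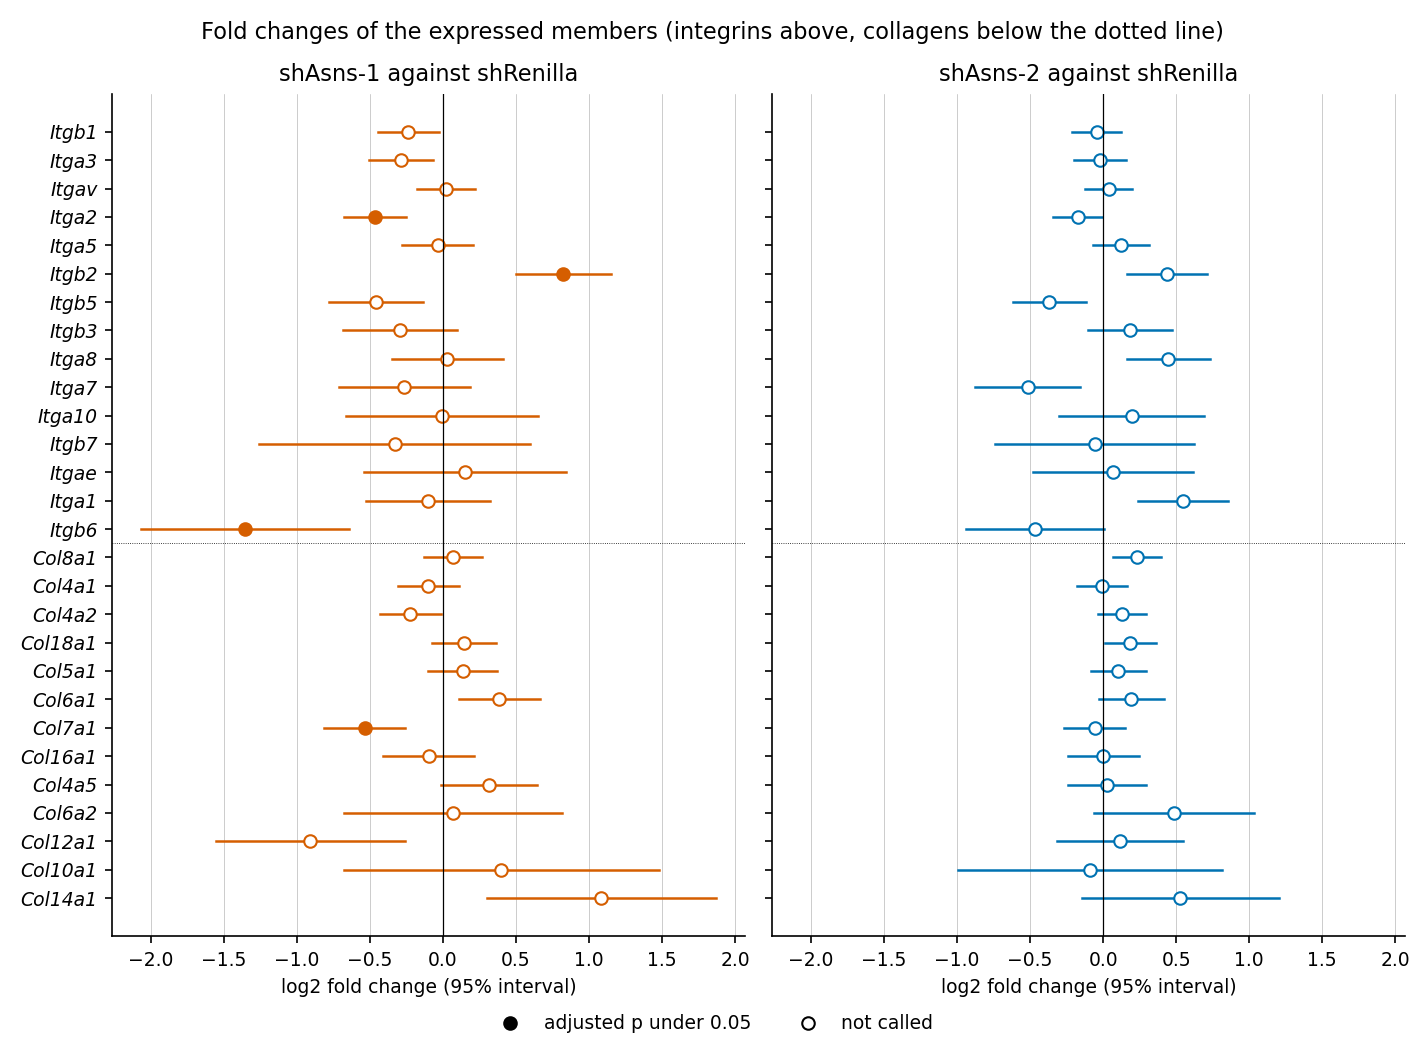
Log2 fold change of the 28 expressed members with 95% intervals, for the library labelled shAsns-1 (left) and shAsns-2 (right), each against shRenilla, with called members filled. The called members are Itgb2 at 0.82, Itga2 at -0.46, Itgb6 at -1.36 and Col7a1 at -0.54, all in the library labelled shAsns-1.

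Itgb2 had 21.9 CPM in the library labelled shAsns-1, 15.1 and 17.3 CPM in the shAsns-2 libraries and 11.8 and 12.7 CPM in the shRenilla libraries. Every shAsns library was above both shRenilla libraries. For this order, here and in the genes below, the share over all genes was not counted. The shAsns-2 libraries alone did not overlap shRenilla in 42.4% of all genes tested, so such an order is no sign of a hairpin effect by itself. The fold in the library labelled shAsns-1 was 1.77 (95% interval 1.41 to 2.22), or 0.82 on the log2 scale (SE 0.155, adjusted p 0.00601), and it kept its call under every alternative run. In shAsns-2 it was 0.44 on that scale (SE 0.129, adjusted p 0.282). The alpha chains that pair with Itgb2 in leukocytes were near 0. Itgal had 3 reads, all in the library labelled shAsns-1, and Itgam had 9 reads there, 2 and 0 in shAsns-2 and 0 and 0 in shRenilla, with 68.7% of its exon bases under another annotated gene. Itgax had 1 read in all, in shRenilla A, and Itgad had 1 read under the shAsns-1 label and 1 in shRenilla B.

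The leukocyte marker list summed to 334.8 CPM in the library labelled shAsns-1, 352.7 and 354.0 CPM in shAsns-2 and 357.2 and 370.1 CPM in shRenilla. Of its 8 genes, 8 had reads in the library labelled shAsns-1, with 6 and 4 in shAsns-2 and 6 and 5 in shRenilla. Nearly all of the sum was Lcp1, an actin bundler that carcinoma cells also express, at 3366 reads in the library labelled shAsns-1. Ptprc, which encodes CD45 and defines leukocytes, had 6 reads in the library labelled shAsns-1, with 1 and 1 in shAsns-2 and 3 and 1 in shRenilla. Itgb2 had 224 reads in that first library. The part of other cells in the Itgb2 reads was not tested.

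Itga2, the alpha chain of the main epithelial collagen receptor, had 99.8 CPM in the library labelled shAsns-1, 119 and 118 CPM in the shAsns-2 libraries and 137 and 137 CPM in the shRenilla libraries. All shAsns libraries were below both shRenilla libraries. It fell in the library labelled shAsns-1, to a fold of 0.725 (95% interval 0.625 to 0.840), or -0.46 on the log2 scale (SE 0.101, adjusted p 0.0143). The shAsns-2 log2 fold change was -0.17 (SE 0.0792, adjusted p 0.504). Without shAsns-2 A or shAsns-2 B, whose spread also enters the fit, the adjusted p of the shAsns-1 call was 0.0570 or 0.0562.

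Itgb6, an epithelial partner of Itgav whose receptor activates latent TGF-beta, had 2.15 CPM in the library labelled shAsns-1, 4.49 and 3.38 CPM in the shAsns-2 libraries and 4.89 and 6.09 CPM in the shRenilla libraries. These levels rest on 22 reads in the library labelled shAsns-1, with 47 and 47 in shAsns-2 and 78 and 87 in shRenilla. All 3 shAsns libraries were below both shRenilla libraries. It fell to a fold of 0.391 (95% interval 0.238 to 0.640) in the library labelled shAsns-1, or -1.36 on the log2 scale (SE 0.337, adjusted p 0.0299). The call was lost with limma-voom (adjusted p 0.0683), without shRenilla A (0.0583) and without shRenilla B (0.0733), and DESeq2 gave Itgb6 no adjusted p, so made no call. In shAsns-2 the log2 fold change was -0.47 (adjusted p 0.520).

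Col7a1, which forms the fibrils that anchor the epithelial basement membrane to the tissue below, had 45.1 CPM in the library labelled shAsns-1, 62.5 and 59.9 CPM in the shAsns-2 libraries and 70.9 and 58.7 CPM in the shRenilla libraries. The library labelled shAsns-1 was the lowest, and shAsns-2 lay inside the shRenilla range. It fell to a fold of 0.689 (95% interval 0.570 to 0.834) in the library labelled shAsns-1, or -0.54 on the log2 scale (SE 0.130, adjusted p 0.0274), and stood at -0.06 in shAsns-2 (adjusted p 0.896). Its call was lost with DESeq2 (adjusted p 0.0640), with the GC trend removed (0.0614), without shAsns-2 A (0.0526) or B (0.0503) and without shRenilla A (log2 fold change -0.38, adjusted p 0.0952).

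**Figure D4:**
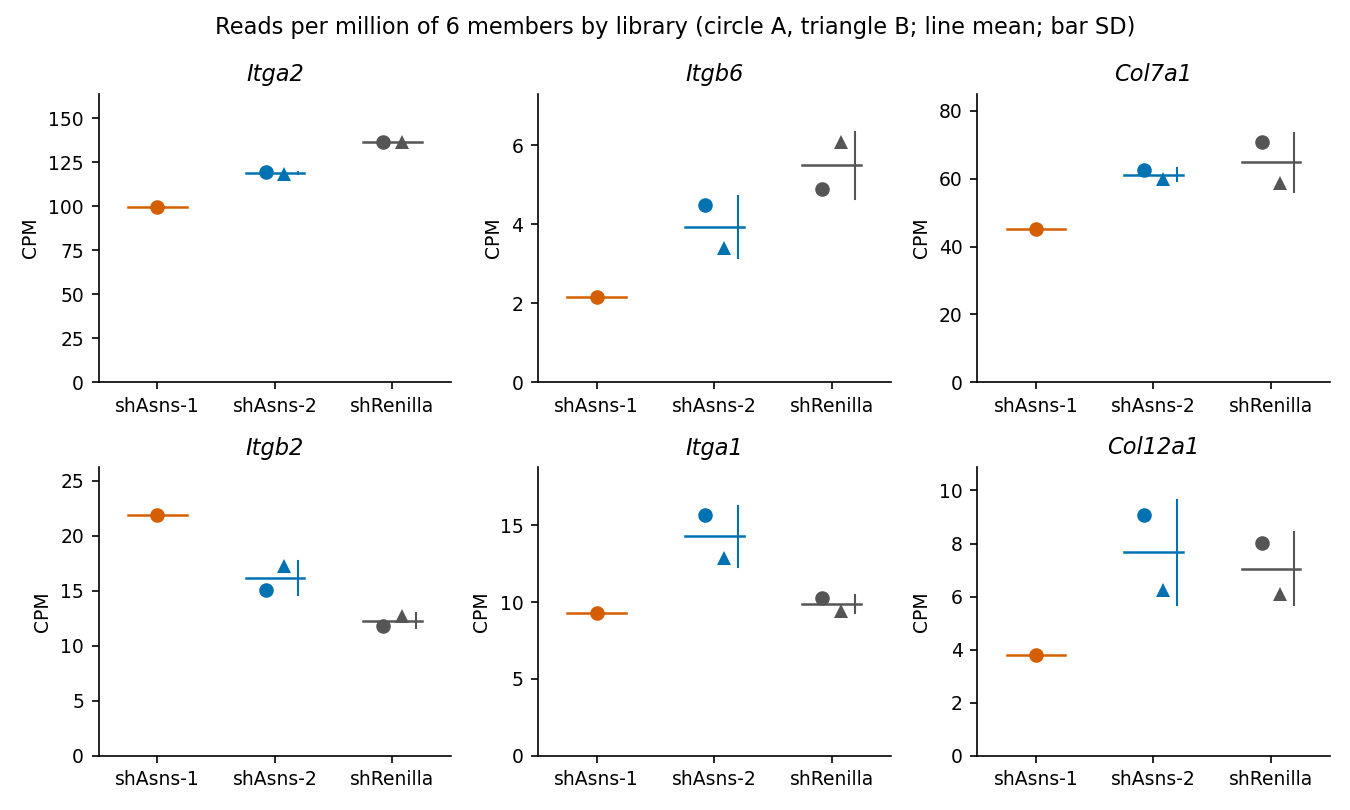
Level of 6 members in CPM, 1 panel each on an axis from 0, with 1 point per library (circle A, triangle B), a line at the group mean and a bar for the SD of 2 libraries. Itgb2 is lowest in shRenilla, Itga2 and Itgb6 are highest there, Col7a1 and Col12a1 are lowest in the library labelled shAsns-1, and Itga1 is highest in shAsns-2.

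The promoter windows of the 3 called genes that fell are shown for comparison, 5′ to 3′, with matches to the 4 motifs named above in capitals. They are Col7a1 at chr9:108953336-108953635 on the plus strand, Itga2 at chr13:114932051-114932350 on the minus strand, and Itgb6 at chr2:60722554-60722853 on the minus strand, the last being 1 of 2 windows listed for the gene (RefSeq, GRCm38.p6). Itgb2 is named only.
Col7a1: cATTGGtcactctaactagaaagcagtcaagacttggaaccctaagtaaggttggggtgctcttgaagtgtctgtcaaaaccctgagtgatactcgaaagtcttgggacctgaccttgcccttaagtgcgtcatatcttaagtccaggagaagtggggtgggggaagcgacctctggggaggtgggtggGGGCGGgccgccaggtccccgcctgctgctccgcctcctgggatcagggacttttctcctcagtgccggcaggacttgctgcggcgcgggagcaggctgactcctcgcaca
Itga2: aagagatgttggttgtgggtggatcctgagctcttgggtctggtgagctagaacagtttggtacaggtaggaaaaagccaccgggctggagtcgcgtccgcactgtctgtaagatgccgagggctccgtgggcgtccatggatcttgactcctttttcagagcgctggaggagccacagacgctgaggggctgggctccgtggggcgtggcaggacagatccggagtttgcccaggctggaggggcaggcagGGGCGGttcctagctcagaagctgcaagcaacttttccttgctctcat
Itgb6: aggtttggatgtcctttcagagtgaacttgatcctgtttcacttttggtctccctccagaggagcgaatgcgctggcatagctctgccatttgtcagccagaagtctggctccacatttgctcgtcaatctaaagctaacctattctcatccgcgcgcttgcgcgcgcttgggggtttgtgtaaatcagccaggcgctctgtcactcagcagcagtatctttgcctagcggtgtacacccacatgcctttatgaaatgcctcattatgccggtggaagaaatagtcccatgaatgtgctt
Col7a1 held 1 CCAAT and 1 GGGCGG, Itga2 held 1 GGGCGG, and Itgb6 held none of these letters in this window. No motif of the 4 was common to all 3 windows.

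Among the laminin receptors, Itga3 had 603 CPM in the library labelled shAsns-1, 748 and 663 CPM in the shAsns-2 libraries and 741 and 719 CPM in the shRenilla libraries. The library labelled shAsns-1 was lowest, and shAsns-2 overlapped shRenilla. The log2 fold change was -0.29 in the library labelled shAsns-1 (adjusted p 0.129) and -0.02 in shAsns-2. With no filter on low counts, Itga3 was called lower in the library labelled shAsns-1, at an adjusted p of 0.0386. Itgb1 had 693 CPM in the library labelled shAsns-1, 739 and 803 CPM in the shAsns-2 libraries and 823 and 798 CPM in the shRenilla libraries, with the library labelled shAsns-1 again lowest and a log2 fold change of -0.24 there (adjusted p 0.190). Itga7, the laminin-binding chain of muscle, had 7.32 CPM in the library labelled shAsns-1, 5.54 and 6.34 CPM in the shAsns-2 libraries and 9.03 and 8.40 CPM in the shRenilla libraries. All shAsns libraries were below shRenilla, and the log2 fold change was -0.26 in the library labelled shAsns-1 (adjusted p 0.541) and -0.52 in shAsns-2 (adjusted p 0.331).

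Among the collagen receptors other than Itga2, Itga1 had 9.27 CPM in the library labelled shAsns-1, 15.7 and 12.9 CPM in the shAsns-2 libraries and 10.3 and 9.45 CPM in the shRenilla libraries. Both shAsns-2 libraries were above shRenilla, and the library labelled shAsns-1 was below. In shAsns-2 it stood at 0.55 on the log2 scale (SE 0.146, adjusted p 0.221), a fold of 1.46 (95% interval 1.18 to 1.81). Itga1 was called higher in shAsns-2 with no filter on low counts, at an adjusted p of 0.0305. That run called 114 of 19175 genes tested, where the reported fit called 8 of 12457. Of its exon bases, 3.68% lie under another annotated gene. Itga10 had 4.00 CPM in the library labelled shAsns-1, 4.77 and 4.25 CPM in the shAsns-2 libraries and 4.70 and 3.22 CPM in the shRenilla libraries, each shAsns group overlapping shRenilla, and 33.5% of its exon bases lie under another gene, so its reads are uncertain. Itga11, the collagen-binding chain of fibroblasts, had 5 reads in the library labelled shAsns-1, with 2 and 4 in shAsns-2 and 5 and 6 in shRenilla.

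Among the RGD and fibronectin receptors, Itgav differed little, with 331 CPM in the library labelled shAsns-1, 324 and 329 CPM in the shAsns-2 libraries and 323 and 325 CPM in the shRenilla libraries. Its log2 fold change was 0.02 in the library labelled shAsns-1 (SE 0.0940) and 0.04 in shAsns-2 (SE 0.0765). Itgb5, a vitronectin-receptor beta chain, had 14.8 CPM in the library labelled shAsns-1, 15.9 and 14.9 CPM in the shAsns-2 libraries and 20.1 and 20.3 CPM in the shRenilla libraries. All shAsns libraries were below shRenilla, and the log2 fold change was -0.46 in the library labelled shAsns-1 (adjusted p 0.100) and -0.37 in shAsns-2 (adjusted p 0.321). Itgb3, also a vitronectin-receptor beta chain, had 12.7 CPM in the library labelled shAsns-1, 16.4 and 17.9 CPM in the shAsns-2 libraries and 17.2 and 13.5 CPM in the shRenilla libraries. The shAsns-2 and shRenilla libraries overlapped, and the library labelled shAsns-1 was lowest (log2 fold change -0.29, adjusted p 0.412). Per kilobase, Itgav exceeded Itgb6 by a ratio of 102 in the library labelled shAsns-1, with 47.7 and 64.3 in shAsns-2 and 43.8 and 35.3 in shRenilla. The ratio of Itgav to Itgb5 was 7.38 in the library labelled shAsns-1, with 6.75 and 7.30 in shAsns-2 and 5.31 and 5.30 in shRenilla. Of Itgav exon bases, 5.90% lie under another annotated gene. Integrins of Itgb3 are also abundant on platelets, whose 4 marker genes summed to 1.66 CPM in the library labelled shAsns-1, 1.72 and 0.936 CPM in shAsns-2 and 1.82 and 1.33 CPM in shRenilla.

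Itga5 had 62.7 CPM in the library labelled shAsns-1, 72.7 and 63.7 CPM in the shAsns-2 libraries and 64.0 and 63.5 CPM in the shRenilla libraries. The shAsns-2 libraries overlapped shRenilla, and the library labelled shAsns-1 lay just below it. Itga8, the nephronectin receptor chain, had 12.0 CPM in the library labelled shAsns-1, 15.7 and 15.6 CPM in the shAsns-2 libraries and 10.6 and 12.8 CPM in the shRenilla libraries. Both shAsns-2 libraries were above shRenilla, with a log2 fold change of 0.45 (adjusted p 0.297), and the library labelled shAsns-1 lay within the shRenilla range. The E-cadherin receptor chains were low, with Itgae at 3.22 CPM in the library labelled shAsns-1, 2.96 and 2.95 CPM in the shAsns-2 libraries and 3.07 and 2.66 CPM in the shRenilla libraries. Itgb7 had 1.56 CPM in the library labelled shAsns-1, 1.53 and 2.09 CPM in the shAsns-2 libraries and 2.07 and 1.82 CPM in the shRenilla libraries. For both genes shAsns-2 overlapped shRenilla, while the library labelled shAsns-1 lay above the shRenilla range for Itgae (log2 fold change 0.15, adjusted p 0.848) and below it for Itgb7 (-0.33, adjusted p 0.736).

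Among the basement membrane collagens, Col4a1 had 304 CPM in the library labelled shAsns-1, 318 and 315 CPM in the shAsns-2 libraries and 305 and 342 CPM in the shRenilla libraries, with the library labelled shAsns-1 just below the shRenilla range and shAsns-2 inside it. Col4a2 had 237 CPM in the library labelled shAsns-1, 305 and 284 CPM in the shAsns-2 libraries and 276 and 272 CPM in the shRenilla libraries. The library labelled shAsns-1 was lowest and shAsns-2 highest for Col4a2, with log2 fold changes of -0.22 (adjusted p 0.218) and 0.13 (adjusted p 0.623). The ratio of Col4a1 to Col4a2 per kilobase was 1.14 in the library labelled shAsns-1, with 0.923 and 0.983 in shAsns-2 and 0.979 and 1.11 in shRenilla. The transcripts of this trimer, which takes 2 alpha1 chains and 1 alpha2 chain, were thus near equal. Col4a5, a chain of a separate type IV trimer, had 19.0 CPM in the library labelled shAsns-1, 14.7 and 15.5 CPM in the shAsns-2 libraries and 16.0 and 14.3 CPM in the shRenilla libraries. Its partners Col4a3 and Col4a4 had at most 6 and 10 reads in a library, and Col4a6 at most 15.

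Col8a1, which forms networks in vessel walls and under the corneal endothelium, had 395 CPM in the library labelled shAsns-1, 436 and 427 CPM in the shAsns-2 libraries and 374 and 375 CPM in the shRenilla libraries. The marker genes of endothelial cells, which also make it, summed to 1.37 CPM in the library labelled shAsns-1, 1.43 and 0.360 CPM in shAsns-2 and 0.501 and 0.630 CPM in shRenilla. All shAsns libraries were above shRenilla for Col8a1, and its log2 fold change was 0.07 in the library labelled shAsns-1 (adjusted p 0.758) and 0.23 in shAsns-2 (SE 0.0766, adjusted p 0.331). Col18a1 had 72.7 CPM in the library labelled shAsns-1, 72.3 and 73.5 CPM in the shAsns-2 libraries and 64.9 and 65.7 CPM in the shRenilla libraries. Here too the shAsns libraries were above shRenilla, with a log2 fold change of 0.19 in shAsns-2 (adjusted p 0.487). Col10a1, a network collagen of growth-plate cartilage, was the least read expressed collagen, at 68 reads in all. Just outside the 50-read line were Col27a1 with 47 and Col4a6 with 41 reads.

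Fibril collagens of connective tissue were nearly absent. Col1a1 had 6 reads in the library labelled shAsns-1, with 2 and 3 in shAsns-2 and 7 and 3 in shRenilla. Col1a2, Col3a1 and Col5a2 had at most 2, 1 and 1 reads in any library. Col5a1, which nucleates fibrils, was the exception, with 61.4 CPM in the library labelled shAsns-1, 60.5 and 56.5 CPM in the shAsns-2 libraries and 57.2 and 53.8 CPM in the shRenilla libraries. Its log2 fold change was 0.13 in the library labelled shAsns-1 (adjusted p 0.554) and 0.10 in shAsns-2 (adjusted p 0.744). The fibroblast list summed to 38.9 CPM in the library labelled shAsns-1, 29.7 and 29.5 CPM in shAsns-2 and 28.5 and 29.0 CPM in shRenilla, nearly all of it Pdgfra. Of its 6 genes, 5 had reads in the library labelled shAsns-1, with 2 and 2 in shAsns-2 and 2 and 4 in shRenilla. The fibroblast genes Dcn, Pdgfrb and Thy1 had at most 1, 4 and 2 reads in any library, and Lum had 0.

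Type VI collagen was read unequally from its chains. Col6a1 had 30.6 CPM in the library labelled shAsns-1, 26.5 and 25.5 CPM in the shAsns-2 libraries and 23.4 and 22.9 CPM in the shRenilla libraries, all shAsns libraries above shRenilla, with a log2 fold change of 0.39 in the library labelled shAsns-1 (adjusted p 0.101). Col6a2 had 3.32 CPM in the library labelled shAsns-1, 5.16 and 3.60 CPM in the shAsns-2 libraries and 3.64 and 2.59 CPM in the shRenilla libraries. Col6a3, the third chain of the usual trimer, had 8 reads in the library labelled shAsns-1, with 9 and 3 in shAsns-2 and 1 and 2 in shRenilla. Per kilobase Col6a1 exceeded Col6a2 by a ratio of 17.5 in the library labelled shAsns-1, with 9.79 and 13.5 in shAsns-2 and 12.3 and 16.8 in shRenilla. The lengths used, of all annotated exons together, were 4380 bases for Col6a1 and 8326 for Col6a2. The ratio is therefore larger than that of the CPM and depends on these lengths.

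Of the collagens that sit on fibril surfaces, Col16a1 had 23.1 CPM in the library labelled shAsns-1, 23.6 and 24.6 CPM in the shAsns-2 libraries and 26.5 and 22.5 CPM in the shRenilla libraries, each shAsns group overlapping shRenilla. Col12a1 had 3.81 CPM in the library labelled shAsns-1, 9.07 and 6.26 CPM in the shAsns-2 libraries and 8.02 and 6.09 CPM in the shRenilla libraries. The library labelled shAsns-1 was lowest, with a log2 fold change of -0.91 (adjusted p 0.101). Col14a1 had 3.61 CPM in the library labelled shAsns-1, 2.58 and 2.23 CPM in the shAsns-2 libraries and 2.01 and 1.33 CPM in the shRenilla libraries, all shAsns libraries above shRenilla, with a log2 fold change of 1.08 in the library labelled shAsns-1 (adjusted p 0.107). Col12a1 was called lower and Col14a1 higher in that library with no filter on low counts, at adjusted p 0.0113 and 0.0498. Neither was called in the reported edgeR fit. With the filter kept, the replicate block also called Col12a1 lower there, at a log2 fold change of -1.12.

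The 40 members below the line, 30 collagens and 10 integrins, held few reads. The number with any read was 36 in the library labelled shAsns-1, with 25 and 17 in shAsns-2 and 23 and 23 in shRenilla. After each library was thinned to 10244753 gene reads, it was 36 in the library labelled shAsns-1, with 25 and 14 in shAsns-2 and 20 and 22 in shRenilla. Together they had 17.7 CPM in the library labelled shAsns-1, 7.64 and 4.32 CPM in shAsns-2 and 5.70 and 5.88 CPM in shRenilla. Among the 40 were also the cartilage chains Col2a1, Col9a1, Col9a2, Col9a3, Col11a1 and Col11a2, the second type VIII chain Col8a2, and the transmembrane collagens Col13a1, Col23a1 and Col25a1, none above 9 reads in a library. Col5a3, Col6a4, Col6a5, Col6a6, Col15a1, Col19a1, Col22a1, Col24a1, Col26a1 and Col28a1 had at most 11 reads in a library, Col20a1 at most 10 and Col27a1 at most 12, and Itgb2l had 1 read in all. In the library labelled shAsns-1, Col22a1 had 11 reads, Col6a4 10 and Col9a1 6, with at most 1 read in any other library. The 1122 olfactory receptor genes, which mammary cells are not known to use, likewise stood highest in the first library, at 41.5 CPM in the library labelled shAsns-1, 11.9 and 7.99 CPM in shAsns-2 and 9.15 and 8.89 CPM in shRenilla. Their part in the low members' reads was not tested.

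**Figure D5:**
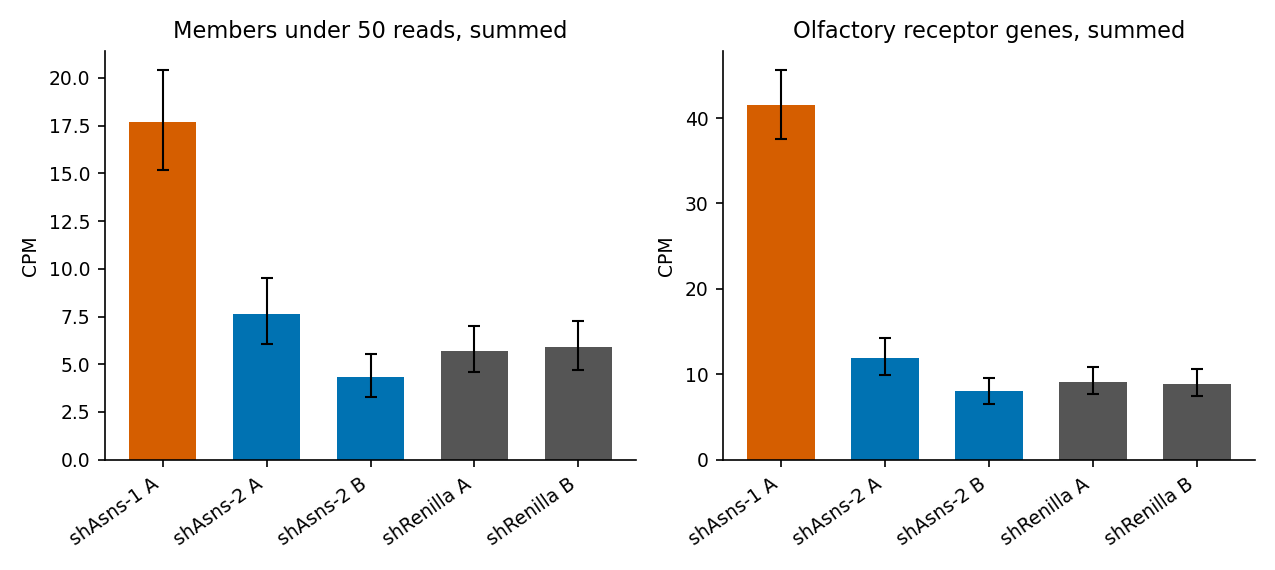
Bars of the summed CPM of the 40 members below 50 reads (left) and of the 1122 olfactory receptor genes (right) in each library, with exact Poisson 95% intervals that cover counting error only. Both sums are highest in the library labelled shAsns-1, at 17.7 and 41.5 CPM.

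Other genes of the pathway were taken from 4 lists. None of the tested members of any list was called in shAsns-2 against shRenilla by edgeR, DESeq2 or limma-voom. There edgeR's unadjusted p was under 0.05 for 6 of 26 genes of collagen folding and cross-linking, 0 of 3 other collagen receptors, 7 of 32 integrin activators and adhesion adaptors, and 7 of 20 ligands other than collagen, where 9.63% of all genes tested were past it. In the library labelled shAsns-1, the ligand list had 1 gene called higher and 5 called lower of 20 (30.0%, against 4.37% of all genes), with a median log2 fold change of -0.16 against -0.01 over all genes. Fn1, the gene of fibronectin and the ligand of Itga5, fell to 1333 CPM in the library labelled shAsns-1, against 2147 and 1960 CPM in shRenilla (log2 fold change -0.63, SE 0.117, adjusted p 0.00554). In shAsns-2 it had 2048 and 1726 CPM. The matricellular ligands Cyr61 (log2 fold change -1.10), Ctgf (-0.97) and Thbs1 (-0.54) and the E-cadherin gene Cdh1 (-0.47) also fell in that library, and Spp1, the gene of osteopontin, rose (0.70, adjusted p 0.00943).

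Between the hairpins, 5 of 20 ligands (25%) and 3 of 32 adaptors (9.38%) were higher in shAsns-2 than in the library labelled shAsns-1, and 1 of 26 folding and cross-linking genes was lower (3.85%), against 2.14% of all genes. The ligands were Fn1, Cyr61, Ctgf, Cdh1 and Hspg2, the gene of the basement membrane proteoglycan perlecan.

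Of 32 activators and adaptors, 2 were called in the library labelled shAsns-1, both lower (6.25%), where 4.37% of all genes were called and 2.06% called lower. The list median was -0.09, and that of all genes -0.01. Among them was the focal adhesion gene Tns3, at -0.65 on the log2 scale (adjusted p 0.00313). Of 26 folding and cross-linking genes, 2 rose and 1 fell (11.5%, against 4.37% of all genes), with a median of 0.00. Loxl3, a lysyl oxidase that cross-links collagen, had 47.3 CPM in the library labelled shAsns-1, 29.0 and 30.0 CPM in shAsns-2 and 25.5 and 24.7 CPM in shRenilla (log2 fold change 0.90, adjusted p 0.000347). Pcolce, an enhancer of procollagen cleavage, had 80.7 CPM in the library labelled shAsns-1, 68.9 and 63.7 CPM in shAsns-2 and 49.9 and 50.4 CPM in shRenilla. It rose in the library labelled shAsns-1 (log2 fold change 0.68, adjusted p 0.00144) and missed the threshold in shAsns-2 (0.43, adjusted p 0.0921). Loxl4 fell in the library labelled shAsns-1 (-0.42, adjusted p 0.0241). Of the 3 other collagen receptors tested, Gpr56 fell there (-1.33, adjusted p 0.0447) by edgeR but was not called by DESeq2 or limma-voom, and the discoidin receptors Ddr1 (-0.13) and Ddr2 (-0.09) were not called. Ddr2 was the highest of the 3 in CPM, at 184.3 CPM in the library labelled shAsns-1, 208.8 and 195.8 CPM in shAsns-2 and 204.0 and 184.4 CPM in shRenilla.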

How the data were processed

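Messenger RNA of 4T1 cells was sequenced in 6 libraries, 2 per hairpin. The deposited table held integer read counts per gene, made by the authors. RNA was extracted with Trizol and amplified with the Nugen Ovation kit, per the labels' protocols, and Bowtie2, HTSeq and the build mm10 are named in the submitters' processing notes. Their versions, the annotation and how strand was treated are not stated in these sources, so antisense and overlapping genes are uncertain. No column was given to no sample. HTSeq's tallies stayed out of library sizes: reads in no feature made up 36.1 to 38.3% of all reads, unaligned reads 17.9 to 23.2% and ambiguous reads 0.584 to 0.626%. Tallies for several alignments and low quality were 0.

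The shAsns-1 B column was 0 throughout, so the planned fit to 6 libraries used 5, with 2 residual degrees of freedom. Counts were fitted in R 4.3.3 with edgeR 4.0.16 (filterByExpr by group, TMM scaling, 1 quasi-likelihood fit over all groups, 14.7 prior degrees of freedom, common dispersion 0.00388). Benjamini-Hochberg adjustment ran over all 12457 genes tested, with calls at an adjusted p under 0.05. SE is the log2 fold change divided by the root of F. DESeq2 1.42.0 and limma 3.58.1 (voom), other scalings, no filter, a GC offset, a replicate block and leaving out each library were alternatives. The script was tested on simulated data. Exon lengths and GC came from GENCODE M21 (GRCm38), where all 68 members matched by symbol. Of the members, 53 have a promoter in the RefSeq table. Replicate libraries were not duplicates (chi-square over its degrees of freedom was 3.17 between the shAsns-2 libraries and 9.2 between the shRenilla libraries). Intervals and floors cover counting error or the fit only.

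Every member could be named. Values per library are given for called members, the 10 collagens and the 10 integrins highest per kilobase, and both chains of complete pairs, and otherwise for members named to show a low level. Members, marker and gene lists and pairs were chosen with earlier results of these data known. List genes named are among those called in a comparison, and Ddr1 and Ddr2. The result of 1 list gene is not reported here.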

Additional observations from a re-analysis of the deposited data

How the results depend on the processing

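Gene-wise, 342 values of the 28 expressed members against shRenilla in shAsns-2 and 296 in the library labelled shAsns-1 kept their direction and their side of the threshold under the alternatives, while 19 and 15 changed sign, 3 and 6 gained a call and 0 and 10 lost one. DESeq2 gave no adjusted p in the library labelled shAsns-1 for members that included Col6a2, Col10a1, Col12a1, Col14a1 and Itgb6, and those values are not in these counts. No scaling moved the median of all genes by 0.1 on the log2 scale. Nothing says whether same-lettered libraries of 2 hairpins share more than that letter, so the replicate block is no test of a paired design. The correlation of their deviations was -0.0173 over 12457 genes, for the 1 pair of groups with both letters, shAsns-2 and shRenilla. Members called in shAsns-2 against shRenilla were 0 in the reported fit and 1, Itga1, with no filter, with the replicate block and with the block and the GC trend removed. For the library labelled shAsns-1, 4 members were called, 2 with DESeq2 (Itga2 and Itgb2, with no adjusted p for Itgb6), 10 with no filter (5 higher and 5 lower, with Col12a1, Col14a1 and Itga3 among the gains), 6 with the replicate block (with Col12a1 and Itga3 gained), and 2 to 3 when 1 library was left out: 2 without shAsns-2 A (Itgb2 and Itgb6), without shAsns-2 B (the same pair) and without shRenilla A (Itga2 and Itgb2), and 3 without shRenilla B. Between the hairpins, 0 members were called, 5 with no filter, 4 with the replicate block, 3 with the block and the GC trend removed, and 0 to 2 when 1 library was left out, with 2 without shRenilla B. Calls over all genes shifted in these runs too. With no filter, 67 members and 19175 genes were tested. Genes called in shAsns-2 against shRenilla rose from 8 to 114 with no filter and 178 with the replicate block. In the library labelled shAsns-1 they rose from 544 to 919 and 924, and DESeq2 called 253. Between the hairpins they rose from 267 to 608 and 875. With the block and the GC trend removed, 163 were called in shAsns-2 against shRenilla and 611 between the hairpins. The cause of these shifts was not tested.

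Log2 fold changes that changed sign were mostly small. In shAsns-2, Col16a1 came to -0.00147 with no filter, -0.0647 with the GC trend removed, -0.060 with the replicate block as well, and -0.117 to 0.139 when 1 library was left out. On leaving out 1 library, shAsns-2 values ran over -0.0765 to 0.0704 for Col4a1, -0.0593 to 0.121 for Col4a5, -0.195 to 0.0978 for Col7a1, -0.155 to 0.388 for Col12a1, -0.115 to 0.0693 for Itga3, -0.0488 to 0.514 for Itga10, -0.0355 to 0.189 for Itgae, -0.0995 to 0.0114 for Itgb1 and -0.317 to 0.122 for Itgb7. For the library labelled shAsns-1 they ran over -0.151 to 0.354 for Col6a2, -0.216 to 0.0398 for Col16a1, -0.0956 to 0.161 for Itga8 and -0.251 to 0.311 for Itga10. With the GC trend removed its values were 0.0448 for Itga5, -0.0234 for Itga8, 0.0617 for Itga10 and -0.0443 for Itgav. With the replicate block and the GC trend removed they were 0.0309 for Col4a1, -0.0724 for Col6a2, 0.00419 for Itga5 and -0.0498 for Itgav. The replicate block alone gave -0.156 for Col6a2, limma-voom 0.0211 for Itga10 and no filter -0.001 for Itgav. Depth limits the members below 50 reads, where a count of 0 allows up to 3 reads.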
